A study of Mus musculus with 12 samples.

Results

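A set of 9 genes of the erythroid lineage were followed across the 4 groups of the study, namely Gata1, Klf1, Gfi1b, Zfpm1, Nfe2, Epor, Tfrc, Car1 and Car2. They were chosen by symbol, and every probe set that the platform annotation gives to exactly 1 of these symbols was taken. This gave 15 of the 45101 probe sets on the array, of which 12 are gene probe sets and 3 are Tfrc control probe sets of the manufacturer. The 9 genes stand among 18193 genes that were tested together. KSL cells, a marrow fraction rich in blood stem and progenitor cells that carries c-Kit and Sca-1 but no lineage markers, were sorted from Fancc mutant mice (Fancc-/-) and from wild-type mice, all aged 2 to 4 months. Cells of each genotype were cultured for 24 h with TNF alpha at 10 ng/ml or without it. All 4 groups received 10% fetal bovine serum, IL-6 at 20 ng/ml, IL-11 at 10 ng/ml, Flt3L at 50 ng/ml and SCF at 10 ng/ml, and erythropoietin is not among the listed factors. Each group had 3 arrays, 12 in all. Whether the 3 arrays of a group stem from separate mice is not stated, so each p-value reflects only how far these samples spread. Sex-linked transcripts, given below, differed within both untreated groups and within wild type with TNF, so those arrays are not all repeats of 1 sample. How much of any spread is technical is not known.

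Red cell production starts when progenitors raise GATA1, a zinc-finger transcription factor that works with its cofactor FOG1, the product of Zfpm1. GATA1 switches on Klf1, which in turn drives globin and other red cell genes. The repressor Gfi1b and the globin-locus regulator Nfe2 are expressed in both the erythroid and the megakaryocytic branch. Later stages depend on the erythropoietin receptor Epor and on iron uptake through the transferrin receptor Tfrc. Red cells also carry the carbonic anhydrases Car1 and Car2, which interconvert carbon dioxide and bicarbonate. Gata1 is also used by mast cells, eosinophils and megakaryocytes, Tfrc by most dividing cells, and Car2 by many tissues.

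With TNF, Car2 rose nearly 2-fold and Klf1 fell in both genotypes. Car2 was 1.94-fold higher with TNF on the arrays labelled mutant and 1.96-fold higher in wild type, and Klf1 was 1.57-fold and 1.58-fold lower. Tfrc fell by 0.23 on the log2 scale when the TNF effect was averaged over both genotypes. Gata1, Zfpm1, Gfi1b, Nfe2, Epor and Car1 did not pass in any comparison. No gene of the 9 differed between genotypes, and no TNF effect differed between genotypes, at an adjusted p under 0.05 (limma, a linear model with moderated variances, with Benjamini-Hochberg adjustment over all 18193 genes). Values throughout are log2 expression after RMA normalisation, and differences are on the same log2 scale.

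**Figure D1:**
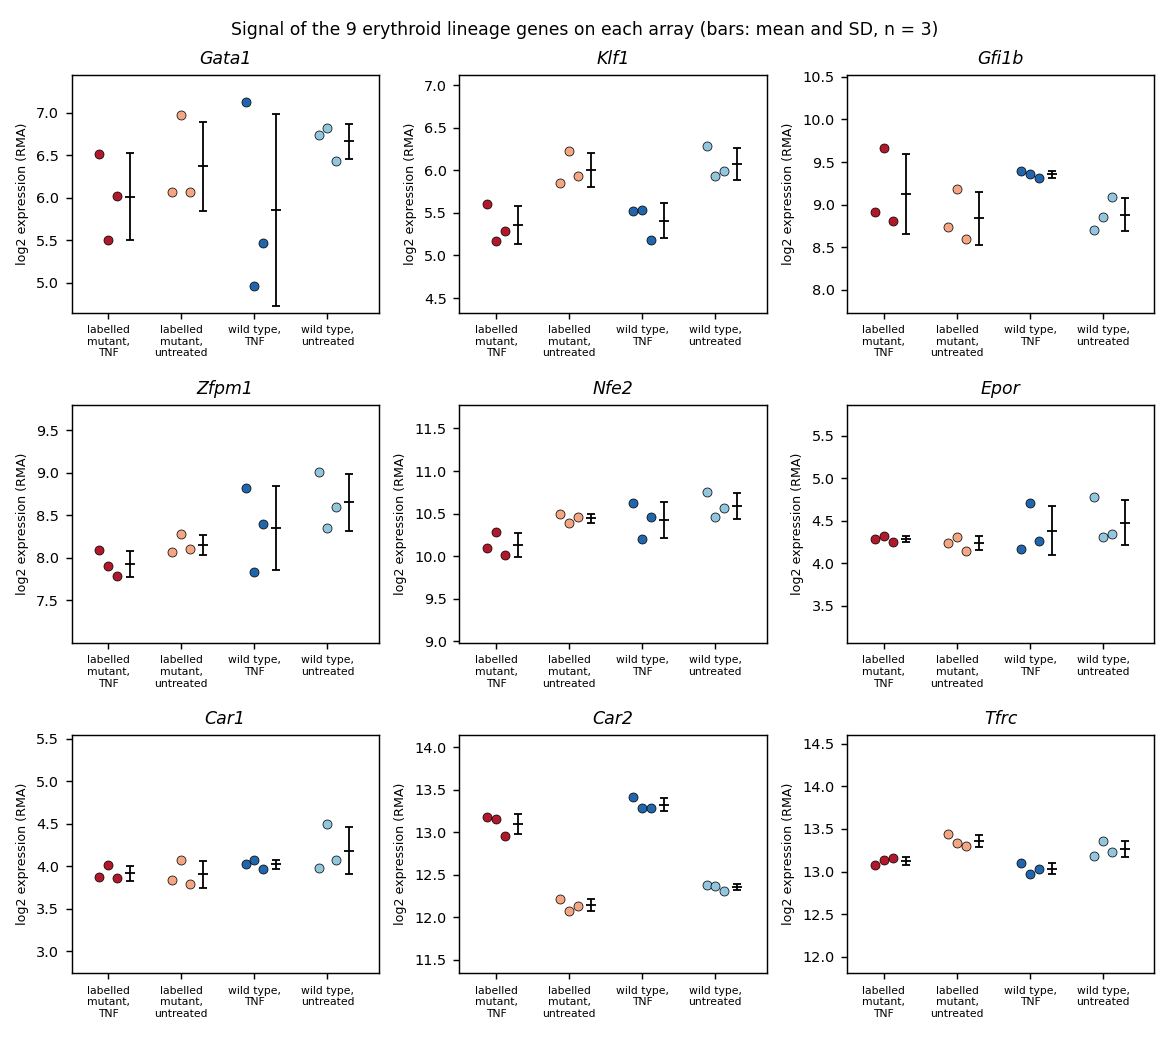
Log2 expression (RMA) of the brightest probe set of each of the 9 genes on all 12 arrays, by group; the vertical axis spans the same number of log2 units in every panel, and bars give the mean and SD of 3 arrays. The TNF-treated arrays lie above the untreated arrays of both genotypes for Car2 and below them for Klf1, while Gata1 spreads widely and Epor and Car1 stay low.

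Of the 9 genes, 1 rose and 1 fell with TNF on the arrays labelled mutant, where 4.31% of all genes were called (2.45% higher and 1.86% lower). In wild type the same counts were 1 and 1, where 5.02% of all genes were called (2.69% higher and 2.33% lower). For TNF averaged over genotype, 1 rose and 2 fell, where 12.1% of all genes were called (5.81% higher and 6.32% lower). The arrays of the TNF-treated and untreated groups did not overlap for 4 of the 9 genes on the arrays labelled mutant (26.2% of all genes) and for 4 of 9 in wild type (20.6%). The median TNF difference over the 9 genes was -0.22 on the arrays labelled mutant and -0.16 in wild type, against -0.03 over all genes in each genotype. Both TNF comparisons use their own untreated arrays.

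**Figure D2:**
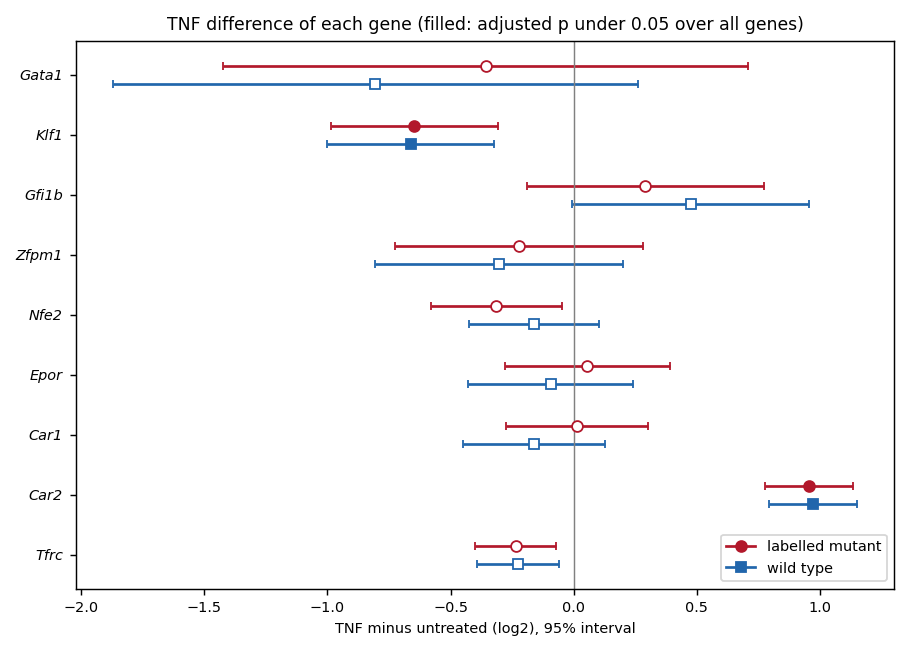
Difference between TNF-treated and untreated arrays (log2, horizontal axis) with its 95% interval from limma for each gene, in cells labelled mutant (circles) and wild type (squares); filled symbols passed an adjusted p of 0.05. Car2 lies to the right of 0 and Klf1 to the left in both genotypes, and the intervals of Gata1 are the widest.

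The label of the genotype and the identity of the cells were checked first. Fancc, a core subunit of the Fanconi anaemia complex, read 8.73 to 9.16 on the arrays labelled mutant, against 8.22 to 8.65 on the wild-type arrays (brightest probe set), and was thus not reduced under the mutant label. The position of its probes relative to the disruption was not examined here, so the genotype is given as labelled. Of the sort's own positive markers, Kit read 9.95 to 10.77 on all arrays, and Ly6a, the Sca-1 gene, was not analysed here. Of 5 measured markers of mature lineages, the T cell genes Cd3e, Cd4 and Cd8a stayed under 6 on all arrays. The myeloid integrin gene Itgam read 4.75 to 6.08, and the pan-leukocyte gene Ptprc, whose B cell isoform is the usual lineage marker, read 11.41 to 11.98. Every array's lower quartile lay between 4.11 and 4.18, which gives an idea of the floor. Lists of granulocyte and monocyte genes read far above it. Without TNF, 11 granulocyte genes averaged 11.49 to 11.86 on the arrays labelled mutant and 10.98 to 11.47 in wild type. For 8 monocyte genes the averages were 10.91 to 11.47 and 10.58 to 11.26. In both lists 0 genes stayed under 6 on all arrays. Replicates were not alike in sex-linked transcripts: the Xist signal was at most 5.47 on 3 untreated arrays (replicate 1 labelled mutant, replicates 1 and 2 of wild type) and at least 12.04 on the other 9. The Y-linked gene Eif2s3y read 4.16 on untreated replicate 2 labelled mutant and 3.79 on wild-type TNF replicate 3. It read at least 10.46 on every other array, so most arrays with high Xist carried both transcripts. A fit with Xist and Eif2s3y levels as covariates is given below where it changes a call.

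Genes of maturing red cells were set beside the erythroid label, and their signals were mixed. Of 16 measured globin and haem synthesis genes 5 stayed under 6 on all arrays, as did 9 of 17 red cell membrane genes. The others reached 6 on some or all arrays. Over the 12 arrays the list means ran from 8.05 to 8.48 and from 6.66 to 6.84. The membrane genes named in this paragraph are all among the 9 under 6. Alas2, the haem synthesis enzyme specific to red cell precursors, read at most 3.64 on any array. The red cell anion exchanger Slc4a1 read at most 5.17, the membrane skeleton gene Epb42 at most 4.27, and the blood group genes Rhag and Kel at most 2.91 and 2.95. The embryonic globin genes Hbb-bh1, Hba-x and Hbb-y read at most 4.67, 4.77 and 5.04, and the adult beta-globin gene Hbb-b2 read 5.05 to 6.18. Hba-a2, named after its values were seen, read 11.75 to 12.41, while Hba-a1 read at most 3.45. Alpha-globin copies are nearly identical, so the high signal cannot be assigned reliably to either copy. Why the readings of these copies lie so far apart was not tested.

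Gata1 had the widest spread between arrays. Gata1 read 6.51, 5.50 and 6.02 with TNF on the arrays labelled mutant, against 6.06, 6.97 and 6.07 without TNF. In wild type it read 7.13, 4.96 and 5.47 with TNF, against 6.73, 6.82 and 6.43 without. The groups overlapped in both genotypes, and wild-type TNF replicates 1 and 2 were the highest and the lowest of all 12 arrays. The difference was -0.36 on the arrays labelled mutant (95% interval -1.42 to 0.71) and -0.81 in wild type (-1.87 to 0.26), and neither passed (limma adjusted p = 0.784 and 0.437). Without wild-type TNF replicate 1 the wild-type difference was -1.44 and passed (adjusted p = 0.0415), as did the average over genotypes at -0.90 (adjusted p = 0.0291). A fall of more than 2-fold or no change at all both lie inside the intervals of the full data.

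The genes most like it in pattern were Slc48a1, a haem transporter (Pearson's r = 0.92), Ms4a2, the beta chain of the high-affinity IgE receptor (r = 0.88), and Cpa3, mast cell carboxypeptidase (r = 0.88). These correlations describe 12 arrays that fall into 4 groups. Cpa3 read 8.83, 7.17 and 8.75 with TNF on the arrays labelled mutant, against 8.47, 9.11 and 8.10 without TNF, and 9.16, 6.43 and 8.30 with TNF in wild type, against 9.73, 9.09 and 9.07 without. Wild-type TNF replicate 2 was the lowest array for both Cpa3 and Gata1. The 11 measured mast cell, basophil and eosinophil genes summed to 73.3 to 81.5 with TNF on the arrays labelled mutant (77.7 to 85.0 without) and to 73.4 to 79.2 with TNF in wild type (84.8 to 88.1 without), in log2 units. Of these genes, 3 (Il4, Mcpt4 and Tpsb2) stayed under 6 on all arrays. Averaged over genotype, 0 rose and 3 fell, where 5.81% of all genes rose and 6.32% fell. The 3 were Mcpt8, a basophil protease (-1.82, SE 0.31, adjusted p = 0.00299), the histamine-making enzyme Hdc (-1.78, SE 0.30, adjusted p = 0.00324) and the dim Il4 (-0.37). In wild type alone 3 fell (median -1.09, 5.02% of all genes called). On the arrays labelled mutant 0 were called (median -0.08, 4.31% of all genes called). For the interaction 0 of the 11 passed. The part of these genes in the Gata1 values was not tested. In these bulk samples, fewer cells of a type and less RNA per cell cannot be told apart.

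**Figure D3:**
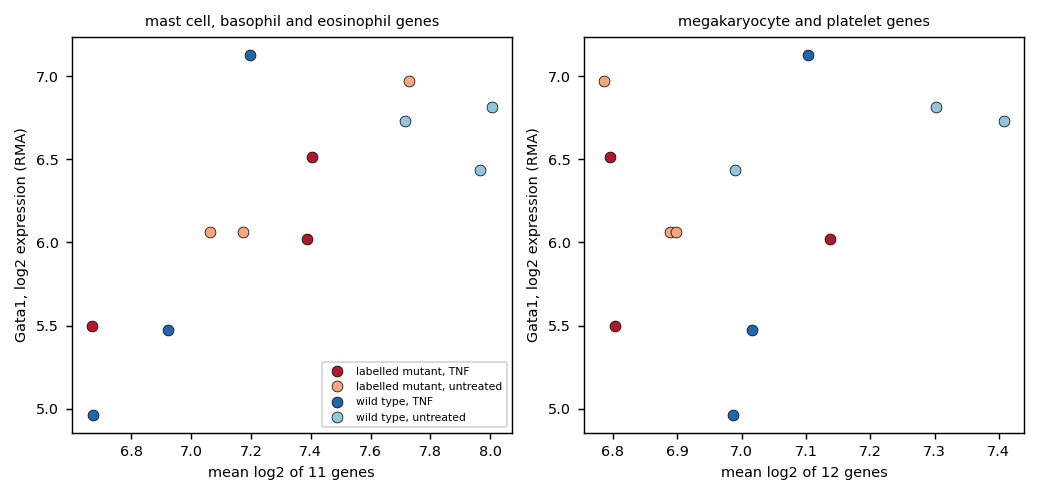
Gata1 signal (log2 RMA, vertical axis) against the mean log2 signal of 11 mast cell, basophil and eosinophil genes (left) and of 12 megakaryocyte and platelet genes (right), 1 point for each of the 12 arrays, coloured by group. The 2 arrays with the lowest mast cell gene mean include the array with the lowest Gata1 signal, at 4.96. The array with the highest Gata1 signal, 7.13 (wild-type TNF replicate 1), has a mast cell gene mean of 7.20, below every untreated wild-type array (7.71 to 8.01).

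Zfpm1, which encodes FOG1, was measured by 2 probe sets. The brighter one read 8.09, 7.91 and 7.79 with TNF on the arrays labelled mutant, against 8.07, 8.28 and 8.11 without, and 8.82, 7.83 and 8.40 with TNF in wild type, against 9.01, 8.35 and 8.60 without. TNF-treated and untreated arrays overlapped in both genotypes, and neither difference passed (-0.22 and -0.30, limma adjusted p = 0.703 and 0.557). Without TNF all 3 arrays labelled mutant lay below the 3 wild-type arrays, by 0.50 (adjusted p = 0.992). The dimmer probe set went the other way there, 0.17 higher on the arrays labelled mutant, again with no overlap, so the probe sets disagree and neither passed. The genes most like the brighter probe set were Timeless (r = 0.96), Xab2 (r = 0.95) and Tal1 (r = 0.94), a GATA1 partner.

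Klf1, the erythroid Krüppel-like factor, fell with TNF. It read 5.61, 5.17 and 5.29 with TNF on the arrays labelled mutant, against 5.85, 6.23 and 5.94 without TNF. In wild type it read 5.52, 5.53 and 5.18 with TNF, against 6.29, 5.94 and 5.99 without. All 6 treated arrays lay below all 6 untreated arrays. The SD within the 4 groups was 0.19 to 0.22 (n = 3 arrays each). The difference was -0.65 (SE 0.15) on the arrays labelled mutant and -0.66 (SE 0.15) in wild type, with limma adjusted p = 0.0404 and 0.033. Averaged over genotype it was -0.65 (SE 0.11, adjusted p = 0.00278). These are low signals, where RMA compresses fold changes.

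The single-genotype calls of Klf1 were close to the threshold. With Xist and Eif2s3y as covariates they did not pass (adjusted p = 0.129 on the arrays labelled mutant and 0.146 in wild type), nor when adjusted over all probe sets (0.0678 and 0.0546). In wild type the call was lost without any single one of the 6 wild-type arrays (adjusted p from 0.0509 to 0.127). On the arrays labelled mutant it was lost without any of the untreated arrays of that label, TNF replicate 2 or 3 of that label, untreated wild-type replicate 2 or 3, or wild-type TNF replicate 1 or 2 (from 0.0514 to 0.153). The average over genotypes passed under all 21 alternatives that kept the gene, with differences from -0.72 to -0.60. The genes most like Klf1 in pattern were Ercc8 (r = 0.96), Gfm1 (r = 0.95) and Slc5a6 (r = 0.95). These r values span arrays with and without TNF, so they include the TNF differences.

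Promoters are shown for Klf1 and Tfrc, whose signal fell with TNF, and for Gfi1b, a known GATA1 target whose signal did not pass. Each window runs from 250 bases before to 50 bases after a RefSeq start site on GRCm38.p6, and 6 of the 9 genes matched an entry; Nfe2, Car1 and Car2 did not. Capitals mark a GATA motif, searched on both strands in 4 spellings. They are AGATAA and the variant AGATAG, plus the spelling TGATAA and the variant TGATAG.
Klf1 (chr8:84901732-84902031, plus strand): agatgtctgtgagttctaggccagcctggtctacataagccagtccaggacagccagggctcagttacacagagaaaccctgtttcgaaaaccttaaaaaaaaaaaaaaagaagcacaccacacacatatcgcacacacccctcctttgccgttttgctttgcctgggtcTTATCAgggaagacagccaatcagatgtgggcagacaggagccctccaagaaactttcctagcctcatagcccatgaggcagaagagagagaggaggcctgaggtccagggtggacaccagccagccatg
Gfi1b (chr2:28621933-28622232, minus strand): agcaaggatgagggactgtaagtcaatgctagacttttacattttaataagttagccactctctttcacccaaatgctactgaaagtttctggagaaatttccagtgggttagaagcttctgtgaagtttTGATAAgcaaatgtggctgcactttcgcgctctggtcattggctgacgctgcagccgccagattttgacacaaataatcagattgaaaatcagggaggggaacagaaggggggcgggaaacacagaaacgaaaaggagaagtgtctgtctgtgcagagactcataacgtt
Tfrc (chr16:32608646-32608945, plus strand): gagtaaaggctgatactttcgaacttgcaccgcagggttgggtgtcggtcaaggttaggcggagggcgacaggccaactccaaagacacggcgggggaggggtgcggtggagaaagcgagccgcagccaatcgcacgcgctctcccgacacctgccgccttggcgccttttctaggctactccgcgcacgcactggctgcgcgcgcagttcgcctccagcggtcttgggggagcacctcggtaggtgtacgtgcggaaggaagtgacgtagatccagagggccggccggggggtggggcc
A GATA match was found in the windows of Klf1 (first base at -80 from the start site), Gfi1b (-120) and Epor (-54). None was found in those of Gata1, Zfpm1 or either Tfrc start, which says only that these letters are not in these windows. Of 32851 promoter windows of the same length, 29.8% held a GATA match. The Krüppel-type motif CCNCNCCC, searched on both strands, was in 49.5% of all windows and in those of Gata1, Gfi1b, Zfpm1, Epor and Tfrc but not of Klf1. A match is a description of the letters, not a binding site.

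Gfi1b, a transcriptional repressor of the erythroid and megakaryocytic lineages, stood higher with TNF in value but did not pass. It read 8.91, 9.67 and 8.80 with TNF on the arrays labelled mutant, against 8.74, 9.18 and 8.59 without TNF, so these groups overlapped. In wild type it read 9.39, 9.36 and 9.31 with TNF, against 8.70, 8.85 and 9.08 without, and the groups did not overlap. The difference was 0.29 (95% interval -0.19 to 0.77) on the arrays labelled mutant and 0.47 (-0.01 to 0.95) in wild type (limma adjusted p = 0.576 and 0.287). The genes most like it were Siah1a, Sppl3 and Tpm2 (r = 0.86, 0.86 and 0.85).

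Nfe2, the p45 subunit of a factor that binds globin and platelet gene enhancers, did not pass. It read 10.10, 10.29 and 10.01 with TNF on the arrays labelled mutant, against 10.50, 10.39 and 10.45 without TNF, with no overlap. In wild type it read 10.62, 10.20 and 10.46 with TNF, against 10.75, 10.46 and 10.56 without, with overlap. The differences were -0.31 (95% interval -0.58 to -0.05) and -0.16 (-0.42 to 0.10), with limma adjusted p = 0.202 and 0.553.

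Epor, the erythropoietin receptor, read 4.25 to 4.32 with TNF on the arrays labelled mutant, against 4.15 to 4.31 without, and 4.17 to 4.71 with TNF in wild type, against 4.30 to 4.78 without. These values are near the floor, and no difference could be detected (0.05 and -0.09, limma adjusted p = 0.911 and 0.812). Of 13 measured genes of erythropoietin signalling, 1 rose and 2 fell with TNF averaged over genotype, where 12.1% of all genes were called. The kinase Jak2, which Epor and several other cytokine receptors use, rose by 0.80 (SE 0.08, adjusted p = 7.52e-05), with 11.39, 11.42 and 11.62 with TNF on the arrays labelled mutant, against 10.58, 10.82 and 10.63 without. In wild type Jak2 read 11.47, 11.53 and 11.70 with TNF, against 10.90, 10.60 and 10.80 without, and all 6 treated arrays lay above all 6 untreated ones. The adaptor Gab2 fell by 0.61 (SE 0.13, adjusted p = 0.011) and the survival kinase Pim1 by 0.31 (SE 0.04, adjusted p = 0.00107).

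Tfrc, the receptor that brings transferrin-bound iron into the cell, was measured by 3 gene probe sets and 3 control probe sets. The brightest gene probe set, 1452661_at, read 13.08, 13.13 and 13.16 with TNF on the arrays labelled mutant, against 13.44, 13.34 and 13.30 without TNF. In wild type it read 13.10, 12.98 and 13.02 with TNF, against 13.18, 13.36 and 13.23 without. Treated arrays lay below untreated ones in both genotypes, by 0.24 and 0.23, which did not pass in either genotype alone (limma adjusted p = 0.122 and 0.125). The average over genotypes was -0.23 (SE 0.05, adjusted p = 0.0166) and passed under 21 of 22 alternatives. The exception was the fit with Xist and Eif2s3y as covariates (-0.19, adjusted p = 0.165). With trended and robust moderation the single-genotype differences also passed (adjusted p = 0.0258 and 0.0296).

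The size of the Tfrc difference depended on the probe set. Over the 3 gene probe sets the TNF average was -0.23 for 1452661_at, -0.54 for 1422966_a_at (SE 0.12, adjusted p = 0.0172 over all probe sets) and -0.81 for 1422967_a_at (SE 0.26, adjusted p = 0.091). With the mean of the 3 probe sets it was -0.53 (adjusted p = 0.0136). Of all 45037 probe sets tested, 7.41% were called for the average, 2.09% on the arrays labelled mutant and 2.58% in wild type. No Tfrc probe set passed in either genotype alone. With TNF, 1422966_a_at stood 0.52 higher on the arrays labelled mutant than in wild type, without overlap, and did not pass (adjusted p = 0.848). The control probe sets, which were not tested, cover the 3′ part, the middle and the 5′ part of the transcript. Their TNF differences in mean were -0.50, -0.49 and -0.78 on the arrays labelled mutant and -0.62, -0.77 and -1.14 in wild type. The brightest probe set lies near the top of the array's range, which ends at 14.94.

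Signal along the transcript, a measure of RNA quality, varied between arrays. For beta-actin the 3′ control probe set exceeded the 5′ one by 0.68 to 1.78, with the highest value on untreated wild-type replicate 1. For Tfrc the same measure was 3.54, 3.41 and 3.64 with TNF on the arrays labelled mutant, against 3.51, 3.40 and 2.88 without, and 4.09, 3.47 and 4.16 with TNF in wild type, against 3.97, 3.04 and 3.12 without. The Tfrc groups overlapped in both genotypes. With the beta-actin measure as a covariate, an alternative chosen after seeing the data, the TNF averages of Klf1 (-0.60), Car2 (0.97) and Tfrc (-0.24) all passed (adjusted p = 0.00439, 8.35e-06 and 0.0126).

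**Figure D4:**
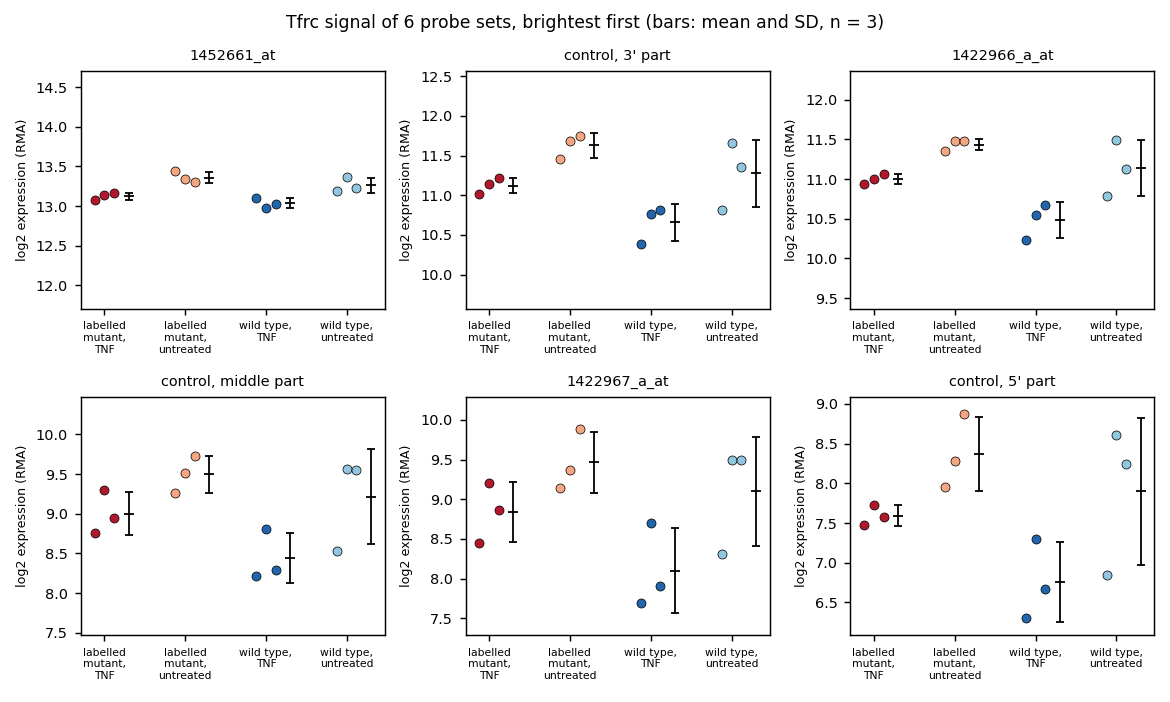
Log2 expression (RMA) of Tfrc from 3 gene probe sets and 3 control probe sets on all 12 arrays, by group, brightest first; the vertical axis spans the same number of log2 units in every panel, and bars give the mean and SD of 3 arrays. The TNF-treated groups have lower means than the untreated groups of the same genotype in all 6 panels, and untreated wild-type replicate 1 is the lowest of the 6 untreated arrays in each.

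Of 15 other iron genes measured, 1 rose and 2 fell with TNF averaged over genotype, with a median difference of -0.02. Over all genes, 5.81% rose and 6.32% fell. Ncoa4, the receptor for autophagy of ferritin, rose by 0.50 (SE 0.07, adjusted p = 0.000762) and also passed in each genotype alone. Slc40a1, the iron exporter ferroportin, fell by 0.77 (SE 0.19, adjusted p = 0.0227), and Steap3, which reduces iron taken up through Tfrc, fell by 0.70 (SE 0.16, adjusted p = 0.0156). Slc40a1 read 8.28 to 8.94 with TNF on the arrays labelled mutant, against 9.43 to 9.54 without, and 8.65 to 9.03 with TNF in wild type, against 9.20 to 10.33 without.

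Car2, carbonic anhydrase 2, had the clearest change of the 9 genes. It read 13.18, 13.15 and 12.96 with TNF on the arrays labelled mutant, against 12.21, 12.07 and 12.13 without TNF. In wild type it read 13.41, 13.28 and 13.28 with TNF, against 12.38, 12.36 and 12.31 without. The groups did not overlap, and the gap exceeded the SD within every group (0.03 to 0.12). The means were 13.10 ± 0.12 with TNF and 12.14 ± 0.07 without on the arrays labelled mutant, and 13.32 ± 0.08 with TNF and 12.35 ± 0.03 without in wild type (SD, n = 3 arrays each). The difference was 0.96 (95% interval 0.78 to 1.14, limma adjusted p = 0.000106) on the arrays labelled mutant and 0.97 (0.79 to 1.15, adjusted p = 8.56e-05) in wild type. It passed under all 23 alternatives in each genotype, with differences from 0.91 to 1.03. The genes most like Car2 in pattern were Cd274, Phlda1 and Ffar2 (r = 0.99, 0.99 and 0.98), with TNF averages of 2.17, 3.21 and 1.27. Cd274 encodes the checkpoint ligand PD-L1, and Ffar2 a short-chain fatty acid receptor. Car2 ran opposite to Tfrc (r = -0.88) and Klf1 (r = -0.83). These r values span arrays with and without TNF, so they include the TNF differences and are not separate evidence.

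Car1, the carbonic anhydrase most abundant in red cells, stayed near the floor at 3.79 to 4.49 on all 12 arrays. Its TNF differences were 0.01 (95% interval -0.27 to 0.30) on the arrays labelled mutant and -0.16 (-0.45 to 0.12) in wild type, with limma adjusted p = 0.979 and 0.588. In the GRCm38.p6 annotation Car13, Car1, Car3 and Car2 follow one another on chromosome 3. At the other end of this run, Car13 rose by 1.02 with TNF averaged over genotype (SE 0.26, adjusted p = 0.027). Car13 read 7.98, 7.49 and 8.46 with TNF on the arrays labelled mutant, against 6.55, 7.14 and 7.46 without, and 8.52, 7.45 and 8.08 with TNF in wild type, against 6.54, 6.59 and 7.55 without. Treated Car13 arrays lay above untreated ones on the arrays labelled mutant but overlapped in wild type. Car3, between them, differed by -0.09 (SE 0.25) and did not pass (adjusted p = 0.868). Of the 14 other carbonic anhydrase genes measured, 1 rose (Car13) and 1 fell (Car12, -0.42, SE 0.08, adjusted p = 0.00555), and 8 stayed under 6 on all arrays. Of all genes, 12.1% were called for this average.

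Of 25 GATA1 partners and other erythroid transcription factors, 3 rose and 1 fell with TNF averaged over genotype, with a median of 0.01. Over all genes, 5.81% rose and 6.32% fell in that comparison. Bcl11a, a repressor of embryonic and fetal-type globin genes, rose by 0.98 (SE 0.09, adjusted p = 6.89e-05). It read 12.36, 12.57 and 12.34 with TNF on the arrays labelled mutant, against 11.59, 11.60 and 11.23 without, and 12.29, 12.42 and 12.55 with TNF in wild type, against 11.58, 11.44 and 11.19 without. All 6 treated arrays lay above all 6 untreated ones. Sox6, which acts with Bcl11a on globin genes, rose by 0.79 (SE 0.21, adjusted p = 0.0359) from low signals, and the histone demethylase gene Kdm1a rose by 0.21 (SE 0.06, adjusted p = 0.038). Zbtb7a, another globin repressor, fell by 0.33 (SE 0.08, adjusted p = 0.0157).

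Globin and haem synthesis genes showed no call for the TNF average, where 12.1% of all genes were called. In limma 0 of 16 measured genes passed for TNF averaged over genotype, while 5 had an unadjusted p under 0.05, as did 26.0% of all genes, and the median was -0.09 against -0.03 over all genes. The smallest p-values belonged to Alad (-0.19, adjusted p = 0.0677) and Fech (-0.16, adjusted p = 0.0766), enzymes of haem synthesis that did not pass. Of the same 5 genes Urod was also lower (-0.18), while Uros (0.25, adjusted p = 0.0768) and Blvrb (0.58) were higher. Of 17 red cell membrane genes, 1 rose and 3 fell (5.81% and 6.32% of all genes), and 9 stayed under 6 on all arrays. Icam4, a red cell adhesion molecule, fell by 1.13 (SE 0.17, adjusted p = 0.00173), with 5.01, 4.89 and 4.97 with TNF on the arrays labelled mutant, against 5.81, 5.20 and 6.18 without, and 4.89, 4.53 and 4.33 with TNF in wild type, against 5.66, 6.31 and 6.25 without. Tspan33, a tetraspanin of erythroid progenitors, rose by 1.11 (SE 0.24, adjusted p = 0.0111). Gypc (-0.29) and Rhag (-0.18) fell, the second of them at floor signals.

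Markers of other lineages were measured on the same arrays. For TNF averaged over genotype, 12.1% of all genes were called (5.81% higher and 6.32% lower). Of 12 measured megakaryocyte and platelet genes, 1 rose and 4 fell (median -0.14), with the integrin beta 3 gene Itgb3 higher by 1.45 (SE 0.09, adjusted p = 5.24e-06) and the platelet receptor genes Gp1bb (-0.46), Treml1 (-0.59) and Gp9 (-0.41) lower. This list summed to 81.5 to 85.7 log2 units with TNF on the arrays labelled mutant (81.4 to 82.8 without) and to 83.8 to 85.2 with TNF in wild type (83.9 to 88.9 without), with Gp6, Treml1 and Clec1b under 6 on all arrays. Of 11 granulocyte genes 11 fell (median -2.27), of 8 monocyte genes 1 rose and 4 fell (median -0.93), and of 7 lymphoid genes 2 rose and 0 fell (median 0.30). The part of such shifts in the Klf1, Tfrc and Car2 values was not tested.

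**Figure D5:**
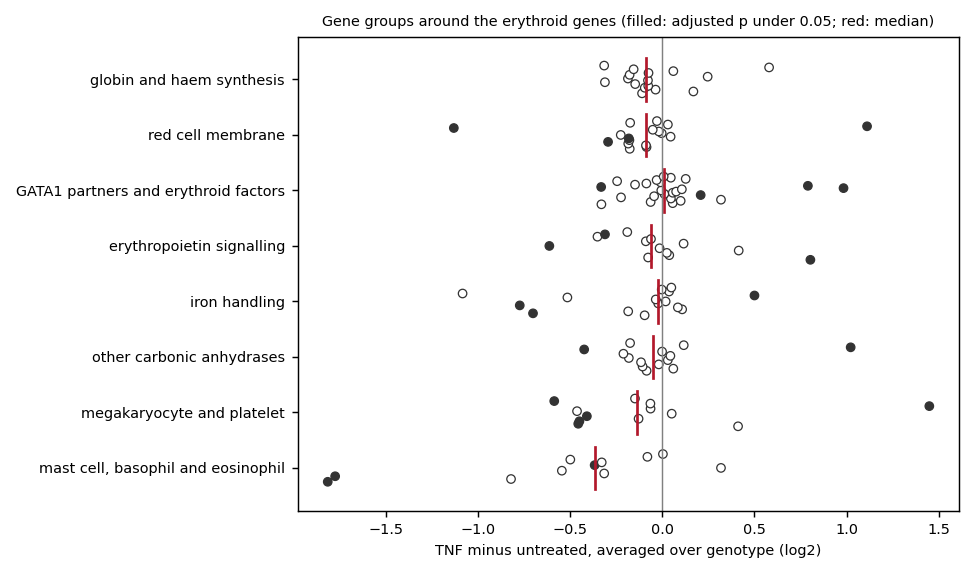
TNF minus untreated, averaged over genotype (log2, horizontal axis), for each measured gene of 8 groups; filled points passed an adjusted p of 0.05 over all genes, and red lines mark the group medians. The medians of the 6 groups of red cell, iron and carbonic anhydrase genes lie between -0.09 and 0.01, and the calls fall on both sides of 0.

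Between genotypes, 0 of the 9 genes passed in limma, with TNF or without (background 0.0055% of all genes in each, which is 1 gene). Unadjusted p-values were under 0.05 for 2 genes with TNF (Car2 and Nfe2; 5.60% of all genes) and for 1 without (Car2; 4.12% of all genes). Car2 stood lower on the arrays labelled mutant in both conditions, by a difference of -0.23 with TNF (95% interval -0.41 to -0.05, adjusted p = 0.724) and -0.21 without (-0.39 to -0.03, adjusted p = 0.992). The arrays labelled mutant lay below the wild-type arrays without overlap in both cases, as did 6.79% of all genes with TNF and 4.28% without (11% and 8.1% in either direction). Without TNF the brighter Zfpm1 probe set did so too, which makes 2 of the 9 genes there and 1 of 9 with TNF. The averaged genotype difference of Car2 was -0.22 and did not pass either (adjusted p = 0.434, background 0.022%). For this average, 3 of the 9 genes (Car2, Zfpm1 and Nfe2) had an unadjusted limma p under 0.05, as did 7.39% of all genes, and 0 passed. In value, 7 of the 9 genes were lower on the arrays labelled mutant with TNF (median -0.11) and 8 of 9 without (median -0.21), against medians of -0.01 over all genes in both.

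No difference in the TNF effect between genotypes was detected for any of the 9 genes. In limma 0 of the 9 passed for the interaction (background 0% of all genes), and 0 had an unadjusted p under 0.05 (2.90% of all genes). The difference between the TNF effects, arrays labelled mutant minus wild type, was -0.02 for Car2 (95% interval -0.27 to 0.24), 0.02 for Klf1 (-0.47 to 0.50), -0.01 for Tfrc (-0.24 to 0.22) and 0.45 for Gata1 (-1.06 to 1.96). The interval of Gata1 was the widest and included a 2-fold difference.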

How the data were processed

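The values are log2 expression per probe set from 12 single-colour Affymetrix arrays (MOE430 2.0, per the labels), deposited by the authors after RMA, per the submitters' processing notes; no version of it is stated there. That the base is 2 was read off the range of values, 2.14 to 14.94. RMA equalises the arrays, so an overall shift cannot be seen, and the number of arrays limits the precision. A gene was read by its brightest probe set with 1 symbol (18193 genes), and 64 control probe sets were not tested. Groups came from the sample titles, and every array was used.

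A linear model with a mean for each group was fitted to every gene (limma 3.58.1, R 4.3.3) and tested 2-sided with Benjamini-Hochberg adjustment over all genes; other member probe sets were tested over all 45037. The script was tested on simulated data. The members and the gene lists were chosen with earlier results of these data known. Named genes were the 9 members, Fancc, up to 4 called genes of each list with the smallest p for the TNF average (or the 2 smallest p-values where fewer than 2 were called), and, for members spanning at least 1 log2 unit, the 3 most correlated genes that are not predicted genes. Maximum values of floor-level markers, the members of the carbonic anhydrase run, Hba-a2, Urod, Uros and Blvrb were named after their values were seen. Gene order and promoters came from RefSeq on GRCm38.p6. List genes without a probe set of 1 symbol were not analysed here. The 23 alternatives are given in the closing section. Figures used Python 3.11.15.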

Additional observations from a re-analysis of the deposited data

How the results depend on the processing

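With TNF, 2 of the 9 genes were called in each genotype. In wild type the count was 1 with the filter on low values (9444 genes with at least 3 arrays above 7.44, which removed Klf1), when adjusted over all probe sets, with Xist and Eif2s3y as covariates, and in a fit of only the groups compared. It was 1 under each of these on the arrays labelled mutant too, and also 1 there with arrays centred on their median and with cyclic loess. Leaving out single arrays gave 1 to 2 in each genotype. Wherever the count was 1, the gene called was Car2, and without wild-type TNF replicate 1 the 2 called in wild type were Car2 and Gata1. The count for the TNF average was 3, with a range of 2 to 4, and the counts for genotype and interaction were 0 under every alternative. The cause of the lost calls was not tested, except that the filter tests fewer genes. Over all genes 784 were called for TNF under the mutant label, 913 in wild type and 2207 for the average, and with the Xist and Eif2s3y covariates they were 452, 410 and 1270. Over all alternatives they ran from 444 to 1168, from 410 to 1255 and from 1270 to 2779, and the wild-type count was 523 with only the groups compared. Genotype counts over all genes ran from 0 to 9, and the interaction from 0 to 1.

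A fit with the replicate number as a block (replicate block) called 2 members for TNF in each genotype, 3 for the average and 0 for genotype and interaction, and changed no member's call. Same-numbered arrays had correlated deviations of -0.16 to 0.28, not all above 0.1 in any comparison, so the numbers are taken as numbers only. Every array correlated best with its own number for genotype with TNF (6 of 6 arrays), a hint from the data, but 4, 3 and 3 of 6 did so in the other comparisons. Array centring and cyclic loess moved the median of all genes by less than 0.1.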
